A study of Mus musculus with 14 samples.

Results

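The mitosis genes are 35 genes whose products build and run the mitotic spindle, the kinetochore and the cyclin-dependent kinase that drives cells into division. They were taken by name from a list of spindle, kinetochore and cyclin genes, chosen with earlier results of these data known. A probe set that names a single gene was present for 34 of the 35, and where a gene had several the brightest on average was used. Ccnb1, which encodes cyclin B1, had no such probe set. Of the 34, 33 passed the filter on low signal and were tested among 14438 genes out of 19937 measured. Ttk, which encodes a checkpoint kinase, passed the filter on 1 array only and is described without a test.

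RNA from OT-I CD8+ T cells, which carry a transgenic receptor for an ovalbumin peptide, was measured on 14 arrays. The donor cells came from fetal liver chimeras on the C57BL/6J background, were placed in congenic recipients that were infected with Listeria expressing ovalbumin, and were sorted by flow cytometry on day 6. The groups were wild-type (WT) KLRG1hi cells with 3 arrays, KLRG1lo cells lacking both Id2 and Bim (Id2KOBimKO) with 2, KLRG1lo cells lacking Id2 (Id2KO) with 2, KLRG1lo cells lacking Bim (BimKO) with 2, and WT KLRG1lo cells with 5. All groups shared the receptor transgene, the infection and the transfer, and KLRG1hi cells were profiled in WT cells only. The labels give neither the construction of the mutant alleles nor whether arrays of a group came from separate animals, so each p-value measures only the spread between these samples, which may be technical.

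Effector CD8+ T cells divide quickly after infection. KLRG1, an inhibitory lectin-like receptor, marks short-lived terminal effector cells, while KLRG1lo cells include the precursors of memory cells. Id2 blocks the DNA binding of E proteins, and Bim, encoded by Bcl2l11, is a protein that drives cell death. Mitotic genes are kept silent early in the cell cycle by the DREAM complex and are switched on in G2 phase by the MuvB proteins with B-Myb and FoxM1, largely through promoter elements called CHR (cell cycle genes homology region) and CCAAT boxes, of which the CCAAT box is bound by NF-Y.

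Because these promoter elements are shared by many mitotic genes, RefSeq promoters of 300 bases (assembly GRCm38.p6, 250 bases before and 50 after the transcript start that the table uses) were searched for them on both strands. The promoters of 29 of the 35 genes were matched by symbol. In 17 of them that start is also the start of the RefSeq gene, and in 12, Mki67 and Top2a among them, it is another one, so that the windows of Aurka and Ect2 do not hold the gene's start. Those of Aurkb, Ccna2, Incenp, Kif20a, Stmn1 and Tpx2 were not printed or searched. The CHR was searched as TTTGAA and as TTTAAA, and the CCAAT box as CCAAT. The sequences printed are those of Cdk1, Kif11, Top2a and Mki67, whose transcripts were higher in KLRG1hi cells, of Ccnb2, with a regular row of CCAAT boxes, and of Nuf2, which had neither element. Each runs 5′ to 3′ on the gene's strand, and capitals mark TTTGAA or CCAAT, written as TTCAAA or ATTGG where the match lies on the other strand.
Cdk1: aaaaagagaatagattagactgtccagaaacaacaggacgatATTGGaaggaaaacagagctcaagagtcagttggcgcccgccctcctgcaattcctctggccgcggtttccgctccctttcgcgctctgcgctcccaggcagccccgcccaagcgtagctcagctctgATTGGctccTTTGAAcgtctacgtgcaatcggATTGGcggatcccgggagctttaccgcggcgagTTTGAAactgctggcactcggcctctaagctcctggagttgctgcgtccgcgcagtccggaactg
Kif11: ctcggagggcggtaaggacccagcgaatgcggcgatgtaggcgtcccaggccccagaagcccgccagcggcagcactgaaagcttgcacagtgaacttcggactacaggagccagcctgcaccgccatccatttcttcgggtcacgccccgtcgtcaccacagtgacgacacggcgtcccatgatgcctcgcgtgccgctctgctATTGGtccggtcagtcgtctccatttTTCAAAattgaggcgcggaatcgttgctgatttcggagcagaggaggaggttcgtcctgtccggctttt
Top2a: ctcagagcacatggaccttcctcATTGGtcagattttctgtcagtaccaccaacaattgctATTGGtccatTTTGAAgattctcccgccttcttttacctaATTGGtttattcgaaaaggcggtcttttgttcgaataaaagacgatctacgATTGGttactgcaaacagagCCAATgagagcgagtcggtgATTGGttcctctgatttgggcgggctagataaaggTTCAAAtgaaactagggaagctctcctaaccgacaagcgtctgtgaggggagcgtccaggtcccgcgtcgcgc
Mki67: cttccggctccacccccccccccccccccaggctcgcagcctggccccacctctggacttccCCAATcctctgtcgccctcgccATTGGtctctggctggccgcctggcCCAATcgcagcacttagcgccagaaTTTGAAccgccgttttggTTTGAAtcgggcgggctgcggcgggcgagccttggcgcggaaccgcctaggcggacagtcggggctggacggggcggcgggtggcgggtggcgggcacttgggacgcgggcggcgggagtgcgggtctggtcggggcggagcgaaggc
Ccnb2: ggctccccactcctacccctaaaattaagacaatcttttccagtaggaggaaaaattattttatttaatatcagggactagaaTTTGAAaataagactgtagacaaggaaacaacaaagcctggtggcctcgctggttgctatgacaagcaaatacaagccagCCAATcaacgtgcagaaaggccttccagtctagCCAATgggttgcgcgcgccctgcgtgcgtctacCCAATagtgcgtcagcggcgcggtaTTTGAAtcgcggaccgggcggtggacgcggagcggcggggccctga
Nuf2: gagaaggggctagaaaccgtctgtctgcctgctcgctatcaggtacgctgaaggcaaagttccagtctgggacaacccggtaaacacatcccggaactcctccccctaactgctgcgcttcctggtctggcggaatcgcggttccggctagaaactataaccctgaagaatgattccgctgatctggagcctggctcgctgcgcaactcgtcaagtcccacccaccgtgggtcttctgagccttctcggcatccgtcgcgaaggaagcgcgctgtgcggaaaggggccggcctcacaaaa
The windows lie at chr10:69352863-69353162 (minus strand) for Cdk1, chr19:37376132-37376431 (plus strand) for Kif11, chr11:99024140-99024439 (minus strand) for Top2a, chr7:135716330-135716629 (minus strand) for Mki67, chr9:70421505-70421804 (minus strand) for Ccnb2 and chr1:169531415-169531714 (minus strand) for Nuf2. Counted from 0 at the start that the table uses, which for Ccnb2, Cdk1 and Kif11 is also the gene's start, the CCAAT boxes of Ccnb2 began at -87, -54 and -21, which is 33 bases apart each time, and a CHR began at 4. In Cdk1 a CCAAT box began at -48 and a CHR at -15, and in Kif11 they began at -45 and -19. The Top2a window held 6 CCAAT boxes and 2 CHR, the largest number among the promoters printed.

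TTTGAA was present in 22 of the 29 promoters (75.9%), against 18.1% of all 27025 promoters of that length. TTTAAA was present in 8 (27.6%, against 13.2%). CCAAT was present in 22 (75.9%, against 37.9%), and 16 promoters held at least 2 copies (55.2%, against 12.2%). A CHR of either spelling together with a CCAAT box occurred in 21 (72.4%, against 10.9%), with 1 pair of matches overlapping. The median GC content was 58.7% in these promoters and 52.7% in all. Mad2l1, Nuf2 and Nusap1 had none of these letters in the window. The E-box CAGGTG was found in 2 of the 29 (6.90%, against 20.0% of all) and CAGCTG in 3 (10.3%, against 16.1%). A match is a run of letters and not a shown binding site. Among the 10 promoters of genes that passed the test between KLRG1hi and KLRG1lo cells, 9 held both a CHR and a CCAAT box. Among the 17 of tested genes that did not pass, 10 held both. This split was not tested, and which genes passed changed with the settings. Ccna2, Stmn1 and Tpx2 passed without a promoter to search, and Nuf2 passed with neither element.

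All values below are log2 of the authors' signal, and differences are log2 differences of group means estimated with limma, with the adjusted p taken over all genes tested. Levels of different genes are not compared, because each rests on its own probe set. The median signal of probe sets with no gene name, taken as a background level, was 5.01 to 5.39 across the arrays. Signals exceeded the highest of these medians on 1 of 14 arrays for Ttk, 5 for Kif4, 7 for Bub1, 8 for Anln, 11 for Cenpf, 12 each for Cenpe, Ndc80 and Nusap1 and 13 for Spc25, so the sizes of these genes' differences are uncertain. The other 25 measured members exceeded it on all 14 arrays. In bulk RNA, fewer cells in mitosis and less RNA per mitotic cell cannot be told apart.

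As a check on the labels, Klrg1 averaged 11.04 in WT KLRG1hi cells and 6.27 in WT KLRG1lo cells. Id2 averaged 9.74 in Id2KOBimKO, 9.80 in Id2KO, 10.84 in BimKO and 10.93 in WT KLRG1lo cells. Bcl2l11 averaged 7.80 in Id2KOBimKO and 7.51 in BimKO cells, against 7.60 in WT KLRG1lo cells, so the Bim status rests on the labels. All 6 measured CD8 T cell markers of 8 listed were above background in every group. The linear sum of 7 measured B cell or plasma cell markers, on the log2 scale, spanned 7.99 to 8.35 on the WT KLRG1hi arrays and 8.32 to 9.70 on the WT KLRG1lo arrays. The same sum for 6 monocyte or macrophage markers spanned 8.76 to 8.95 on the WT KLRG1hi arrays and 8.58 to 9.64 on the WT KLRG1lo arrays. For 6 neutrophil markers it spanned 7.74 to 8.11 on the WT KLRG1hi arrays and 7.77 to 9.01 on the WT KLRG1lo arrays, and for 3 measured red cell precursor markers of 7 listed, 7.06 to 7.37 on the WT KLRG1hi arrays and 7.04 to 8.59 on the WT KLRG1lo arrays. Cd74, a marker of B cells and myeloid cells, set 5 arrays apart: it was at 7.77 on Id2KOBimKO array 2, 8.63 on BimKO array 2 and 8.46, 8.73 and 7.98 on WT KLRG1lo arrays 3, 4 and 5, and at 6.25 or below on the other 9. Results are therefore also given from those 9 arrays alone, a choice made after the values were seen. Among NK cell markers, Ncr1 was at 3.65 to 4.01 on the WT KLRG1hi arrays and 3.73 to 4.93 on the WT KLRG1lo arrays, while Klrb1c was at 8.94 to 10.54 on the WT KLRG1hi arrays and 6.48 to 7.10 on the WT KLRG1lo arrays. The Id2KO arrays stood apart in sex-linked genes: Xist was at 4.47 to 4.99 there and at 8.37 or above on all other arrays, and Eif2s3y was at 7.39 to 8.20 there and at 3.66 or below elsewhere. The Id2KO cells thus differed from WT KLRG1lo cells in apparent sex as well as in Id2. In Id2KO against WT these 2 differences cannot be told apart. The interaction and the mean Id2 effect below use the same Id2KO arrays and carry the same limit.

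In WT cells, mitosis gene signals were higher in KLRG1hi than in KLRG1lo cells, and 13 genes from 7 of the 9 roles passed the test. All 33 tested had a positive difference, where 50.5% of all genes did, and the 13 that passed were all higher (limma, adjusted p under 0.05), where 0.679% of all genes rose and 0.263% fell. The median difference was 0.68, a fold of 1.60, against 0.00 over all genes. At an unadjusted p under 0.05, 30 members were higher, against 4.34% of all genes. For 27 members all 3 KLRG1hi arrays lay above all 5 WT KLRG1lo arrays, against 2.41% of all genes. The mean of the 34 genes per array was 7.20, 7.32 and 7.33 in WT KLRG1hi cells, against 6.66, 6.76, 6.41, 6.57 and 6.70 in WT KLRG1lo cells, so the groups did not overlap.

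**Figure D1:**
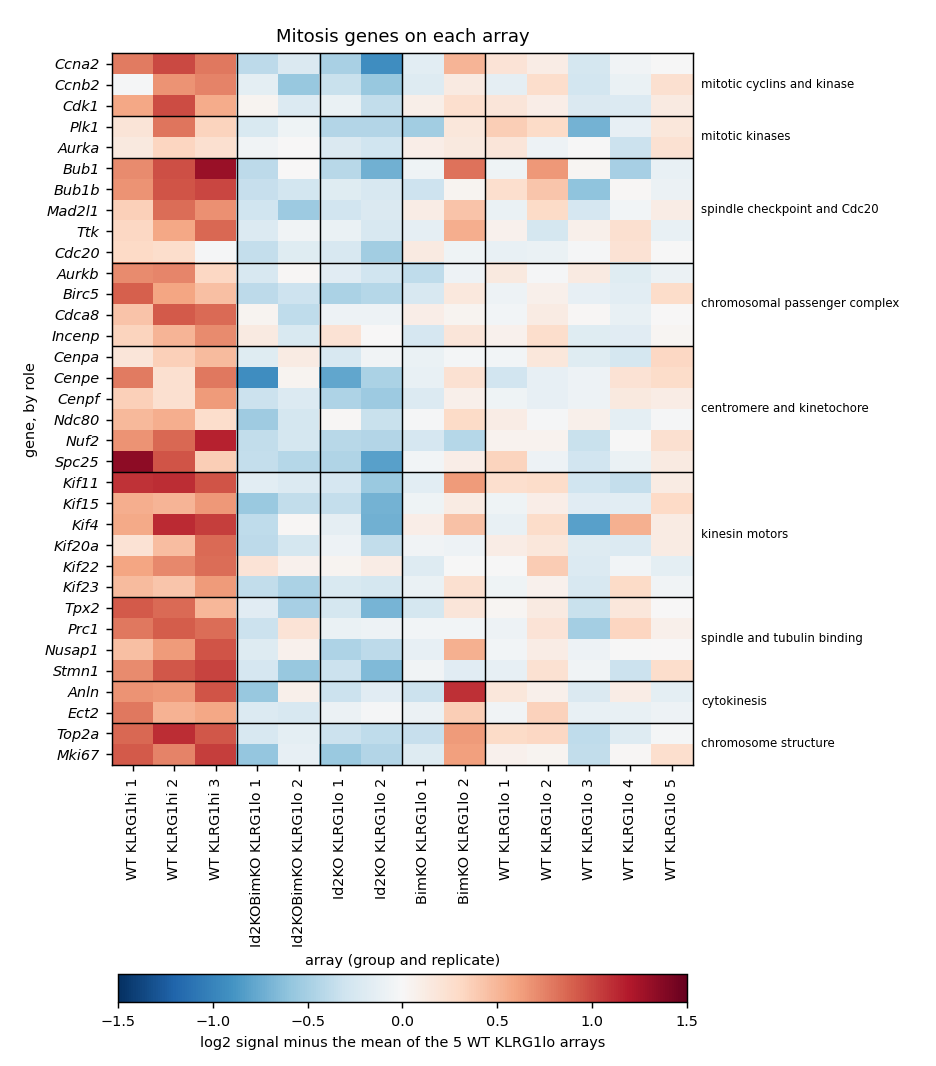
Heatmap of log2 signal for 34 mitosis genes, grouped by role, on each of 14 arrays, as the difference from the mean of the 5 WT KLRG1lo arrays (colour scale, red higher, blue lower). The 3 WT KLRG1hi arrays are red in nearly every row, and the Id2KOBimKO and Id2KO arrays are mostly blue.

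The cyclins and their kinase come first in the order of division. Ccna2 encodes cyclin A2, which partners Cdk2 and Cdk1 in S phase and G2. Its signal was 8.80, 9.01 and 8.82 on the WT KLRG1hi arrays and 8.23, 8.14, 7.76, 7.98 and 8.02 on the WT KLRG1lo arrays. The groups did not overlap, and the difference was 0.85, a fold of 1.80 (adjusted p 0.0201). Cdk1, the kinase that starts mitosis, had 6.53, 6.93 and 6.51 in WT KLRG1hi cells and 6.13, 6.05, 5.73, 5.75 and 6.09 in WT KLRG1lo cells. All KLRG1hi arrays lay above all WT KLRG1lo arrays, with a difference of 0.71 (adjusted p 0.0357). Ccnb2, which encodes a B-type cyclin that activates Cdk1, had 8.23, 8.92 and 8.99 in WT KLRG1hi cells and 8.11, 8.51, 7.97, 8.15 and 8.48 in WT KLRG1lo cells. Its KLRG1hi array 1 lay within the KLRG1lo range, and the difference of 0.47 did not pass (adjusted p 0.537).

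The kinases that follow, Plk1 and Aurka, did not pass. Plk1, a kinase for mitotic entry and spindle assembly, differed by 0.44 with a 95% interval of -0.04 to 0.92 (adjusted p 0.777). Aurka, the centrosome kinase that Tpx2 activates, differed by 0.23 with an interval of -0.06 to 0.53 (adjusted p 0.883). The KLRG1hi and KLRG1lo arrays of both genes overlapped.

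Among the spindle checkpoint genes, which hold cells before anaphase until chromosomes are attached, 1 of 4 tested passed. Bub1b, which encodes the checkpoint protein BubR1, had 7.0, 7.28 and 7.33 in WT KLRG1hi cells and 6.58, 6.74, 5.72, 6.35 and 6.24 in WT KLRG1lo cells. The arrays did not overlap, and the difference was 0.88 (adjusted p 0.0345). Bub1, the kinase that recruits checkpoint proteins to kinetochores, differed by 0.99 (adjusted p 0.0633), and Mad2l1, the inhibitor of Cdc20, by 0.63 (adjusted p 0.0824). Cdc20, the activator of the anaphase-promoting complex that the checkpoint holds back, had 7.20, 7.17 and 6.89 in WT KLRG1hi cells and 6.79, 6.81, 6.89, 7.13 and 6.91 in WT KLRG1lo cells. These ranges overlapped, and the difference of 0.18, with an interval of -0.11 to 0.48, was the smallest among the members (adjusted p 0.94). Ttk, the untested checkpoint kinase, had 4.91, 5.18 and 5.47 in WT KLRG1hi cells and 4.66, 4.34, 4.68, 4.84 and 4.49 in WT KLRG1lo cells.

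In the chromosomal passenger complex, which corrects faulty attachments and guides cytokinesis, all 4 genes had non-overlapping arrays and 1 passed. Cdca8, which encodes the subunit borealin, had 6.46, 6.95 and 6.88 in WT KLRG1hi cells and 5.99, 6.16, 6.06, 5.93 and 6.04 in WT KLRG1lo cells. The difference was 0.73 (adjusted p 0.0206). Birc5, which encodes survivin, differed by 0.64 (adjusted p 0.0516), Aurkb, the complex's kinase, by 0.58 (adjusted p 0.089), and Incenp, its scaffold, by 0.52 (adjusted p 0.219).

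Of 6 centromere and kinetochore genes, 2 passed, and both encode subunits of the NDC80 complex that grips microtubules. Nuf2 had 6.71, 6.90 and 7.20 in WT KLRG1hi cells and 6.08, 6.09, 5.71, 6.02 and 6.28 in WT KLRG1lo cells. The arrays did not overlap, and the difference of 0.90 (SE 0.15, adjusted p 0.00545) had the smallest p among the members. Spc25 had 7.19, 6.79 and 6.22 in WT KLRG1hi cells and 6.18, 5.77, 5.55, 5.75 and 5.98 in WT KLRG1lo cells, with a wide spread in KLRG1hi cells that still lay above the KLRG1lo range, and a difference of 0.89 (adjusted p 0.0357). Ndc80, the complex's namesake subunit, differed by 0.43 (adjusted p 0.302). Cenpf, a kinetochore protein, differed by 0.41 (adjusted p 0.306), and Cenpe, a kinesin of the kinetochore, by 0.59 (adjusted p 0.361). Cenpa, the histone variant of centromeres, had 8.44, 8.61 and 8.73 in WT KLRG1hi cells and 8.22, 8.43, 8.07, 7.99 and 8.56 in WT KLRG1lo cells. These overlapped, with a difference of 0.34 (adjusted p 0.652).

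All 6 kinesin motor genes had non-overlapping arrays, and 2 passed. Kif11, the motor that pushes spindle poles apart, had 7.96, 7.98 and 7.82 in WT KLRG1hi cells and 7.13, 7.14, 6.57, 6.52 and 7.0 in WT KLRG1lo cells. Its difference of 1.05 (SE 0.19, adjusted p 0.0107), a fold of 2.06, was the largest among the members. Kif22, a motor that pushes chromosome arms away from the poles, had 6.90, 7.04 and 7.15 in WT KLRG1hi cells and 6.31, 6.70, 6.11, 6.28 and 6.17 in WT KLRG1lo cells. The KLRG1hi arrays lay above the others, with a difference of 0.71 (adjusted p 0.0252). Kif15, which works beside Kif11, differed by 0.56 (adjusted p 0.0954). The cytokinesis motors Kif23 and Kif20a differed by 0.51 (adjusted p 0.148) and 0.52 (adjusted p 0.231). Kif4, a motor bound to chromosomes, had 5.58, 6.12 and 6.05 in WT KLRG1hi cells and 4.89, 5.27, 4.19, 5.54 and 5.13 in WT KLRG1lo cells, near background in KLRG1lo cells. The arrays did not overlap, and the difference was 0.91 (adjusted p 0.119).

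Of the 4 genes for spindle and tubulin-binding proteins, 3 passed. Stmn1, which encodes a protein that destabilises microtubules and is shut off by phosphorylation in mitosis, had 8.85, 9.08 and 9.16 in WT KLRG1hi cells and 8.03, 8.38, 8.09, 7.83 and 8.41 in WT KLRG1lo cells. Its difference was 0.88 without overlap (adjusted p 0.0107). Prc1, which links antiparallel microtubules in the midzone of the spindle, had 7.39, 7.51 and 7.45 in WT KLRG1hi cells and 6.52, 6.81, 6.09, 6.92 and 6.67 in WT KLRG1lo cells. The KLRG1hi arrays lay close together above the KLRG1lo range, and the difference was 0.84 (adjusted p 0.0259). Tpx2, which nucleates spindle microtubules, differed by 0.75 (adjusted p 0.0409), and Nusap1, which bundles them, by 0.68 (adjusted p 0.0551).

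The cytokinesis genes had non-overlapping arrays and did not pass. Ect2, which activates RhoA at the cell equator, differed by 0.63 (adjusted p 0.0572), and Anln, a scaffold of the contractile ring, by 0.75 (adjusted p 0.246). Both genes of chromosome structure passed. Mki67, whose product coats mitotic chromosomes and is the usual marker of dividing cells, had 9.31, 9.14 and 9.43 in WT KLRG1hi cells and 8.46, 8.44, 8.02, 8.41 and 8.64 in WT KLRG1lo cells, a difference of 0.90 (adjusted p 0.0259). Top2a, the enzyme that untangles sister chromatids, had 8.85, 9.10 and 8.92 in WT KLRG1hi cells and 8.27, 8.30, 7.61, 7.80 and 7.96 in WT KLRG1lo cells, a difference of 0.97 (adjusted p 0.0264). Neither gene's groups overlapped. With the mean of the 2 single-gene probe sets of Top2a in place of the brighter one, its difference was 0.46 (limma, adjusted p 0.678). The Top2a result therefore rests on the brighter probe set, and the reason was not tested.

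**Figure D2:**
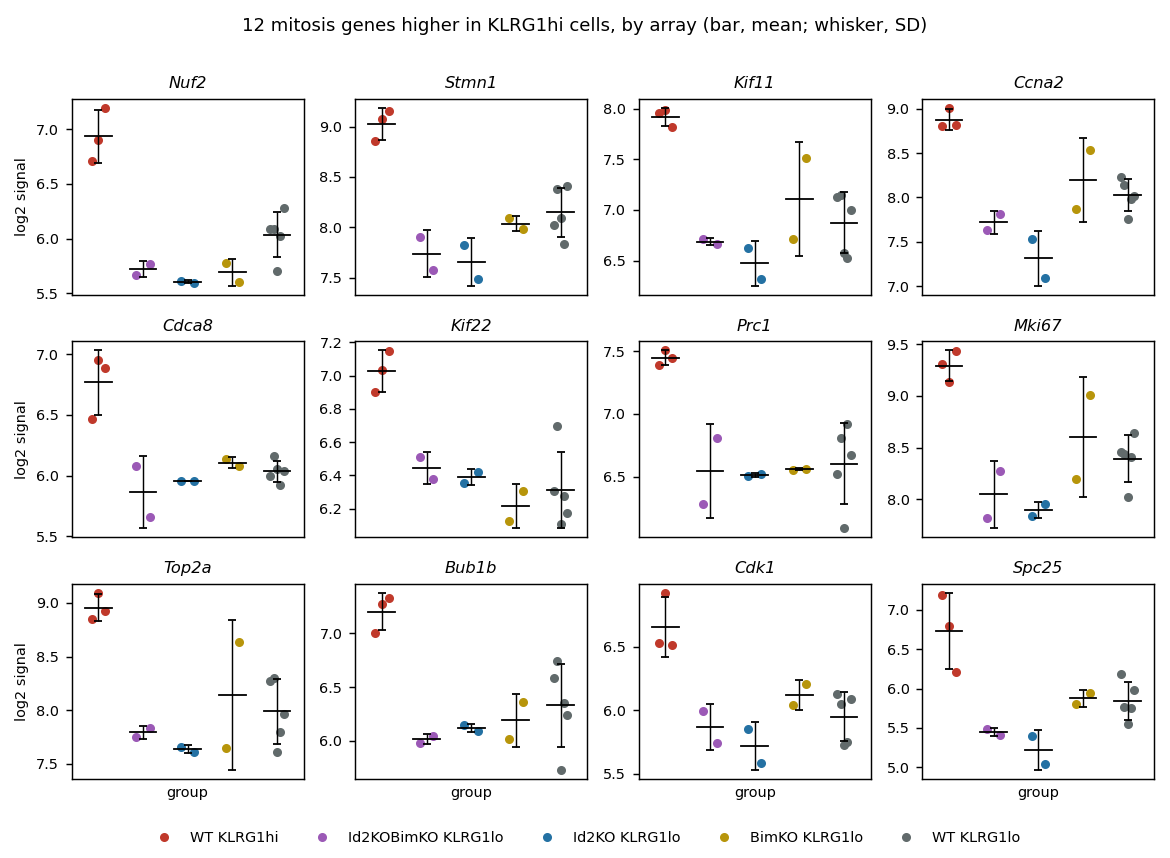
Log2 signal by array for the 12 mitosis genes with the smallest p between WT KLRG1hi and WT KLRG1lo cells, in 5 groups (points, arrays; bars, means; whiskers, SD). The WT KLRG1hi points stand above the WT KLRG1lo points for all 12, while the BimKO points of Kif11, Top2a and Mki67 lie far apart.

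The number of members that passed depended on single arrays. It was 1 without KLRG1hi array 2, and 7, 5, 5 and 4 without WT KLRG1lo arrays 1, 3, 4 and 5, while the median difference stayed between 0.65 and 0.72 when any 1 array of the 2 groups was left out. Across 19 other settings, Nuf2 passed in 17, Kif11 and Stmn1 in 16 each, Ccna2 in 14, Prc1 in 13, Top2a in 12, Cdca8, Cdk1 and Mki67 in 11 each, and Bub1b, Kif22, Spc25 and Tpx2 in 10 each. The count was 6 when the fit held only the groups compared and 23 with the spread of the array as a covariate. Numbers of all genes passing under these settings are not given. Whether the changes in the count are particular to the members was not tested. On the 9 arrays with low Cd74, 3 KLRG1hi against 2 WT KLRG1lo, 0 members passed with limma. There 25 were higher at an unadjusted p under 0.05, all 33 had positive differences and the median was 0.57. Shares of all genes on these 9 arrays are not given, so those counts have no reference beside them. The arrays fell into 2 sets by their background signal, and within these sets the median KLRG1hi minus KLRG1lo difference was 0.54 (2 arrays against 2) and 0.79 (1 against 3). WT KLRG1lo arrays 1 and 2, which had low Cd74, were in the first set, and arrays 3, 4 and 5, which had high Cd74, were in the second. In WT KLRG1lo cells the background sets and the Cd74 split are therefore the same split and not separate checks.

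The KLRG1hi arrays were also high against the mutant KLRG1lo cells. The mean of the 34 genes was 6.33 and 6.43 on the Id2KOBimKO arrays, 6.35 and 6.23 on the Id2KO arrays and 6.49 and 6.86 on the BimKO arrays, all below the KLRG1hi arrays. WT KLRG1hi cells had the highest group mean for all 34 genes. The lowest group mean belonged to Id2KO cells for 24 genes, to Id2KOBimKO cells for 9 and to BimKO cells for 1. For 22 of the 34 genes (64.7%) all 3 KLRG1hi arrays lay above all 11 KLRG1lo arrays, against 1.41% of the genes tested. In Anln, Bub1, Mad2l1, Ndc80, Nusap1 and Ttk the highest KLRG1lo array was BimKO array 2, above the lowest KLRG1hi array.

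Other genes of division, from lists that held no member, had smaller median differences. Of 58 tested genes of further spindle, kinetochore and cytokinesis roles, 6 rose in KLRG1hi cells and none fell, 55 had positive differences and the median difference was 0.44. The 6 were Tacc3, which stabilises spindle microtubules (0.75, adjusted p 0.021), Kif18a, a motor that aligns chromosomes (0.75, adjusted p 0.026), Knl1, a kinetochore scaffold (0.82, adjusted p 0.028), Racgap1, a partner of Kif23 (0.74, adjusted p 0.036), Spag5 (0.83, adjusted p 0.036), a spindle protein, and Cdca5, which protects cohesin (0.57, adjusted p 0.037). Of 16 condensin and cohesin genes 1 rose, the condensin subunit Ncaph (0.80, adjusted p 0.029). Of 21 regulators of mitotic genes 1 rose, E2f2 (0.59, adjusted p 0.037), while Foxm1, which activates mitotic genes, differed by 0.65 (adjusted p 0.054).

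No gene on the lists for DNA replication, the G1 phase, the anaphase-promoting complex or kinase inhibitors passed. Of 37 DNA replication genes 0 passed with limma, 18 were higher at an unadjusted p under 0.05, 34 had positive differences and the median was 0.34. Rrm2, a subunit of ribonucleotide reductase, differed by 0.66 (adjusted p 0.108). Of 9 G1 cyclins and kinases 0 passed, 1 was higher at an unadjusted p under 0.05, and the median was 0.31. The 14 subunits of the anaphase-promoting complex, the ligase that Cdc20 activates, had a median of 0.09 with 0 past limma's adjusted threshold and 0 at an unadjusted p under 0.05. The 7 inhibitors of cyclin-dependent kinases had a median of 0.02 with 0 past the adjusted threshold and 1, Cdkn2c, higher at an unadjusted p under 0.05 (0.69, adjusted p 0.23). The differences between these lists were not tested.

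Loss of Id2 in KLRG1lo cells went with lower mitosis gene signals that did not pass the test. Id2KO and WT KLRG1lo cells also differed in apparent sex, which cannot be told apart from Id2 loss in that comparison. Of 33 members 0 passed in Id2KO against WT KLRG1lo cells (limma), where 0.111% of all genes did, and 12 were lower at an unadjusted p under 0.05, against 7.38% of all genes. Differences were negative for 31 and positive for 2, against 52.2% positive among all genes, with a median of -0.38 against 0.03 over all genes. For 12 members both Id2KO arrays lay below all 5 WT KLRG1lo arrays, against 14.2% of all genes. Markers of other cells also had negative medians, none of them past the test: the median difference was -0.54 over 5 neutrophil genes (0 positive), -0.52 over 6 B cell or plasma cell genes (1 positive), -0.46 over 3 red cell precursor genes (0 positive) and -0.42 over 5 monocyte or macrophage genes (0 positive), against 0.33 over 6 CD8 T cell genes (6 positive). On the 9 arrays with low Cd74, 2 Id2KO against 2 WT KLRG1lo, the median of the mitosis genes was -0.42 and all 33 differences were negative. There 12 were lower at an unadjusted p under 0.05, with 0 past limma's adjusted threshold. Shares of all genes on those arrays are not given, so these counts have no reference beside them.

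Ccna2 had 7.53 and 7.10 in Id2KO cells, against 8.23, 8.14, 7.76, 7.98 and 8.02 in WT KLRG1lo cells. The groups did not overlap, with a difference of -0.71 (SE 0.19, adjusted p 0.275). Kif15 had 6.35 and 6.01 in Id2KO cells, against 6.65, 6.81, 6.54, 6.55 and 7.01 in WT KLRG1lo cells. Both Id2KO arrays were lower, with a difference of -0.53 (adjusted p 0.275). 4 roles had medians of -0.43 or lower: cyclins and Cdk1 (-0.45), centromere and kinetochore (-0.47), spindle and tubulin binding (-0.45) and chromosome structure (-0.43). Incenp and Kif22 had positive differences, of 0.11 and 0.08.

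Other lists in the same comparison had 0 genes past limma's adjusted threshold. The share of all genes higher at an unadjusted p under 0.05 in this comparison is not given. Counts of higher genes in these lists therefore have no reference beside them. The 58 further mitosis genes had a median of -0.29, with 18 lower and 3 higher at an unadjusted p under 0.05. Among them Kif14, a cytokinesis motor, averaged 5.04 in Id2KO cells and 5.81 in WT KLRG1lo cells (-0.77, adjusted p 0.25), and Cdca5 averaged 5.43 in Id2KO cells and 6.07 in WT KLRG1lo cells (-0.63, adjusted p 0.156). The 37 DNA replication genes had a median of 0.06, with 3 lower and 1 higher at an unadjusted p under 0.05, among them Rrm2 (-0.62, adjusted p 0.275). The 14 subunits of the anaphase-promoting complex all had positive differences, with a median of 0.38 and 1 higher at an unadjusted p under 0.05. The condensin subunit Smc4 was at 9.49 in Id2KO cells and 8.72 in WT KLRG1lo cells (0.77, adjusted p 0.275).

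In cells without Bim the median was -0.31 for Id2KOBimKO against BimKO cells. There 0 members and 0 of all genes (0%) passed with limma, 5 members were lower at an unadjusted p under 0.05 (0.9% of all genes), and 28 differences were negative and 5 positive, against 56.7% positive among all genes. Mad2l1 had 7.15 and 6.90 in Id2KOBimKO cells, against 7.56 and 7.87 in BimKO cells. It did not overlap and differed by -0.69 (SE 0.22, adjusted p 1). Ndc80 had 5.18 and 5.45 in Id2KOBimKO cells, against 5.69 and 6.00 in BimKO cells, also without overlap, and differed by -0.53, with its Id2KOBimKO array 1 within the background range. For 16 members both Id2KOBimKO arrays lay below both BimKO arrays, against 12% of all genes, and for Kif22 alone they lay above (17.6% of all genes).

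**Figure D3:**
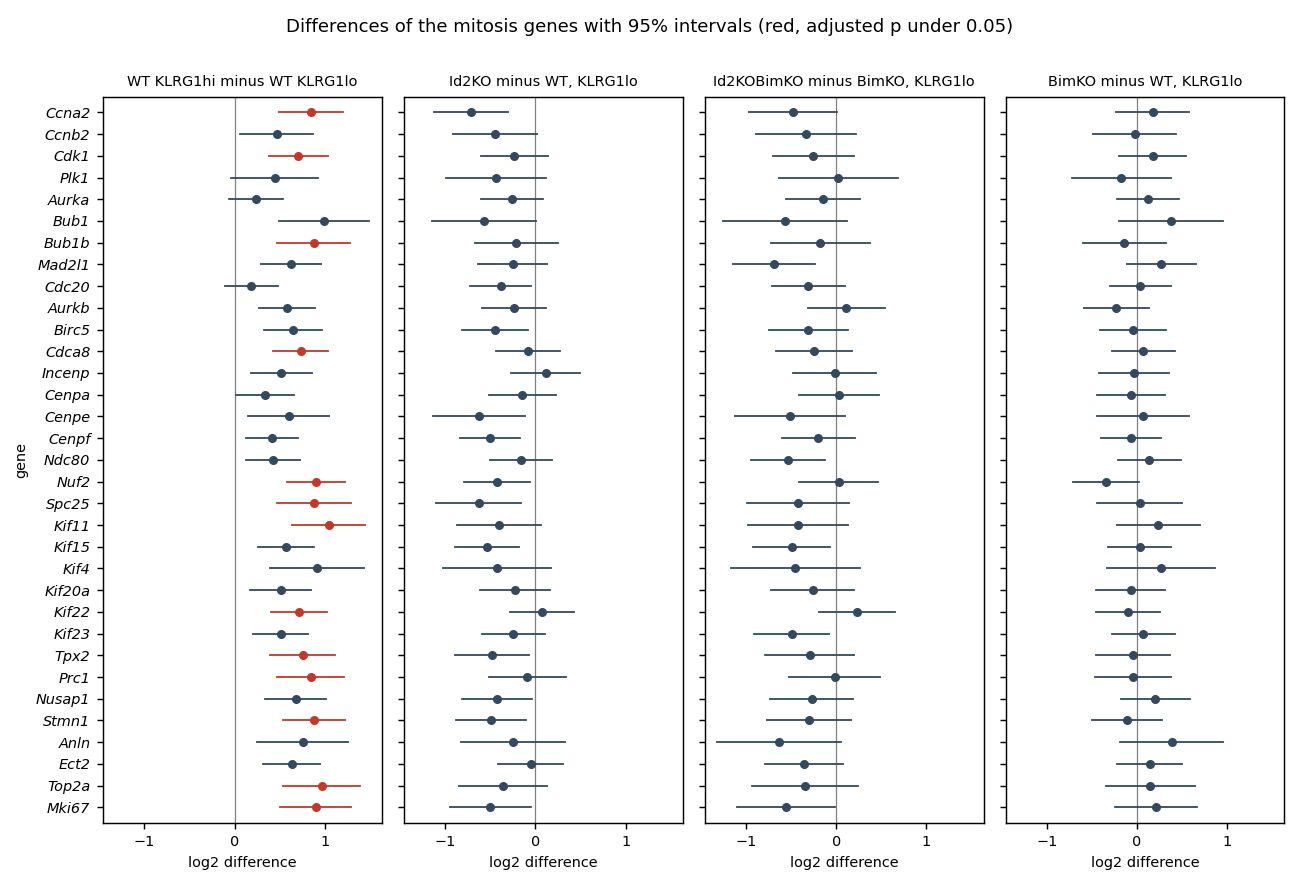
Log2 differences of 33 mitosis genes with 95% intervals in 4 comparisons (points, differences; lines, intervals; red, adjusted p under 0.05). Only the WT KLRG1hi minus WT KLRG1lo panel has red points, 13 of them, and most points of both Id2 panels lie below 0.

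The size of the Id2 difference in cells without Bim depended on which BimKO array was used. BimKO array 2 lay above BimKO array 1 for 29 of 34 members (85.3%), against 45.0% of all genes, by a median of 0.34, and by 1.41 in Anln. Without BimKO array 1 the median of Id2KOBimKO minus BimKO was -0.50, and without BimKO array 2 it was -0.13. Some markers of other cells were also higher on BimKO array 2. Cd74 was at 8.63 there and 5.21 on BimKO array 1, and Cd79a, of B cells, at 6.19 there and 4.92 on BimKO array 1. Lyz2, of myeloid cells, was at 7.35 on BimKO array 2 and 5.63 on BimKO array 1, S100a9, of neutrophils, at 6.74 on BimKO array 2 and 5.11 on BimKO array 1, and Alas2, of red cell precursors, at 6.45 on BimKO array 2 and 5.47 on BimKO array 1. Other markers on the same lists were lower on BimKO array 2 than on BimKO array 1. Among monocyte or macrophage markers these were Cd14 (4.84 against 5.16) and Fcgr1 (5.17 against 5.29). Among neutrophil markers they were Mpo (5.35 against 5.38), Elane (4.85 against 5.25) and Camp (5.27 against 5.70). Epor, of red cell precursors, was at 5.80 against 6.00. The part of these markers in the result was not tested.

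Set against WT KLRG1lo cells, Id2KOBimKO cells had a median of -0.27, with 32 negative differences and 1 positive, against 49.8% positive among all genes. With limma 0 passed, where 0.0623% of all genes did, 5 were lower at an unadjusted p under 0.05 (1.91% of all genes), and 10 did not overlap and were lower (7.27% of all genes). Kif15 had 6.15 and 6.34 in Id2KOBimKO cells, against 6.65, 6.81, 6.54, 6.55 and 7.01 in WT KLRG1lo cells, and Kif23 had 6.80 and 6.69 in Id2KOBimKO cells, against 7.11, 7.24, 6.93, 7.46 and 7.12 in WT KLRG1lo cells. Both Id2KOBimKO arrays lay below all WT KLRG1lo arrays for each gene, with differences of -0.46 for Kif15 and -0.42 for Kif23. This comparison shares its WT arrays with the Id2KO comparison.

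In cells lacking Bim alone the differences were small and of both signs. In BimKO against WT KLRG1lo cells 0 members passed with limma (0% of all genes), 0 had an unadjusted p under 0.05 in either direction (2.51% of all genes higher and 4.41% lower), and 0 had arrays that did not overlap (5.6% of all genes higher and 6.99% lower). Of the differences 19 were positive and 14 negative, against 47.3% positive among all genes, with a median of 0.04. On the arrays with low Cd74, 1 BimKO against 2 WT KLRG1lo, the median was -0.20, so the sign is not settled. Nuf2 had 5.78 and 5.61 in BimKO cells, against 6.08, 6.09, 5.71, 6.02 and 6.28 in WT KLRG1lo cells, overlapping, with a difference of -0.34 and an interval of -0.71 to 0.02. Mad2l1 had 7.56 and 7.87 in BimKO cells, against 7.34, 7.73, 7.19, 7.40 and 7.56 in WT KLRG1lo cells, overlapping, with a difference of 0.27 and an interval of -0.11 to 0.65.

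The Id2 effect was not shown to differ between cells with and without Bim: in the interaction (the Id2 effect without Bim minus the Id2 effect with Bim) 0 members passed with limma (0.0277% of all genes), 0 had an unadjusted p under 0.05 (2.47% of all genes higher and 1.79% lower), and the median was 0.07 with 20 positive (48.2% of all genes). That test cannot settle whether the effects are alike. The members' median SE in it was 0.28, against median Id2 effects of -0.38 with Bim and -0.31 without Bim. On the arrays with low Cd74, with 1 Id2KOBimKO and 1 BimKO array, the interaction median was 0.31. The Id2 medians there were -0.42 with Bim and -0.14 without Bim. The mean of the Id2 effects in both backgrounds was also examined, an estimate added after the data were seen. It had a median of -0.35 with 0 members past limma's adjusted threshold (0.18% of all genes), and 17 of 33 lower at an unadjusted p under 0.05 (51.5%, against 2.23% of all genes). Differences were negative in both backgrounds for 27 members (81.8%, against 21.6% of all genes). Ccna2 had -0.60 (adjusted p 0.226) and Kif15 -0.51 (adjusted p 0.226). In Kif15, Spc25, Birc5 and Cdc20 all 4 arrays without Id2 lay below the 7 KLRG1lo arrays with Id2 (12.1% of members, against 0.776% of all genes).

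Spc25 had 5.49 and 5.41 in Id2KOBimKO and 5.40 and 5.03 in Id2KO cells, against 5.80 and 5.95 in BimKO cells and 6.18, 5.77, 5.55, 5.75 and 5.98 in WT KLRG1lo cells. The value of 5.03 on Id2KO array 2 lies within the background range. Cdc20 had 6.54 and 6.72 in Id2KOBimKO and 6.66 and 6.38 in Id2KO cells, against 7.04 and 6.84 in BimKO and 6.79, 6.81, 6.89, 7.13 and 6.91 in WT KLRG1lo cells. Cdc20 had the smallest KLRG1hi difference among the members and was below the Id2-containing arrays on all 4 arrays without Id2.

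**Figure D4:**
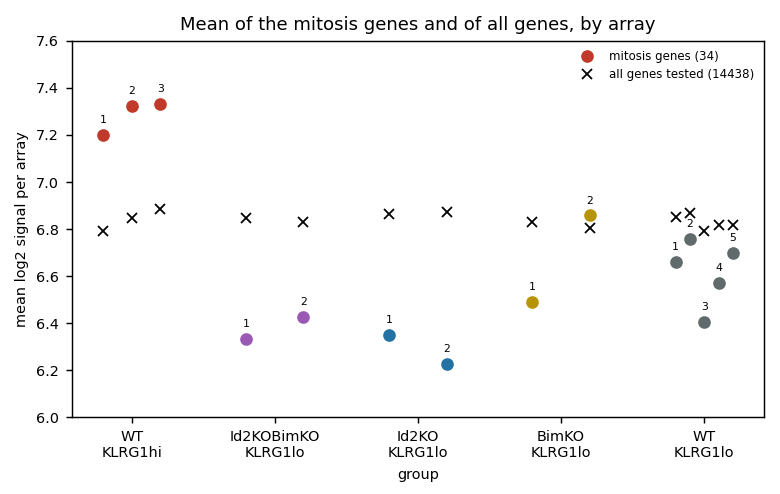
Mean log2 signal per array of the 34 mitosis genes (dots, numbered by replicate) and of the 14438 genes tested (crosses), in 5 groups. The WT KLRG1hi dots sit between 7.20 and 7.33 and the Id2KOBimKO and Id2KO dots between 6.23 and 6.43, while the crosses stay level.

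The 34 genes varied together over the 14 arrays. The median Pearson correlation between members was 0.77 and 561 of 561 pairs were positive, with the groups and the arrays' preparation shared by all points. After group means were removed the median was 0.31 and 440 pairs (78.4%) were positive. With 14405 other genes the median was 0.01. Over all 14 arrays, with group differences included, the array mean of the members had a correlation of -0.12 with the interquartile range of the array. With the background median it was -0.32. Within WT KLRG1hi, WT KLRG1lo and BimKO cells the array of smallest range had the lowest mean. In WT KLRG1lo cells these were 2.46 and 6.41, against 2.82 and 6.76 on the array of largest range. In Id2KOBimKO and Id2KO cells the array of larger range had the lower mean. A relation within groups was not tested. Ccna2, Kif11, Top2a and Mki67 each had a correlation of 0.96 with the mean of the other members over 14 arrays, while Cdc20 had 0.66 and Aurka 0.71.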

How the data were processed

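Gene expression of 14 samples in 5 groups was measured on single-colour arrays, and per the labels' protocols RNA was extracted with TRIzol, amplified in rounds and labelled with biotin. The authors deposited RMA intensity values, and the submitters' processing notes name RMA and the assembly mm9. The values were taken to be on a linear scale. The deposited intensity was turned into log2 with no offset, and no further normalization was applied. The scale was read from the values, and scanner files were not used here. Of 34760 probe sets, 21640 named 1 gene, 1321 several and 11799 none, and Entrez numbers of 21553 were matched to RefSeq GRCm38.p6 to update symbols. The brightest probe set on average represented a gene, and a gene was tested if above the array's 40th percentile on at least 2 arrays.

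Group means over all 14 arrays were fitted with limma 3.58.1 in R 4.3.3 (data.table version 1.17.8), with 9 residual and 7.99 prior degrees of freedom, two-sided tests, Benjamini-Hochberg adjustment over 14438 genes and a threshold of 0.05. Intervals are 95% intervals. Promoters were searched with Python 3.11.15. The fit was tested on simulated data with 200 genes of 14438 changed by 1 on the log2 scale: it recovered 89.0% of them for KLRG1hi against KLRG1lo, 76.0% for Id2KO, 43.0% for Id2KOBimKO against BimKO, 69.5% for BimKO and 72.5% for Id2KOBimKO against WT. The simulated noise was independent for each gene. Members differed by less than 1 in every comparison of mutants, the largest difference being -0.71 in Id2KO against WT. Recovery of such smaller differences was not measured. The number of arrays limits the precision.

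The members, lists and tests were chosen with earlier results of these data known, and the motif search, the mean Id2 effect and the fit without arrays whose Cd74 signal was above 7 on the log2 scale were chosen after seeing values. Values per array are given for Kif11, Stmn1 and Ccna2, for up to 12 members that passed between KLRG1hi and KLRG1lo cells, and for the 2 members with the smallest p in each other comparison. The rule also covers the members of highest and lowest mean signal (Mki67 and Cenpa, Kif4 and Ttk). Ccnb2, Cdc20 and the mutants' values of Spc25 were added after their values were seen. Samples sharing a replicate number deviated together with a correlation over 0.1 in 10 of 21 pairs (median 0.06, range -0.52 to 0.41). Samples with different numbers did so in 17 of 54 pairs (median -0.01, range -0.67 to 0.65). In groups of 2 arrays the deviations mirror each other, so the pairs are not independent and do not settle whether the numbers pair the samples. The numbers were not taken as pairs.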

Additional observations from a re-analysis of the deposited data

Results flagged for a closer look

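Ect2, which encodes an activator of RhoA in cytokinesis, had a log2 signal of 6.80 on WT KLRG1lo array 2. The nearest of the other WT KLRG1lo arrays was at 6.39 and the lowest at 6.33, so that array lay far from the others of its group. It was 1 of 34 genes looked at in the WT KLRG1lo group, and chance alone sets about 1 in 20 such groups apart.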

How the results depend on the processing

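The settings tried changed the filter, the probe set choice, the normalization, the fit and the arrays used, 1 at a time. The number of members that passed between KLRG1hi and KLRG1lo cells was 13. It was 6 with only the groups compared, 23 with the array spread as a covariate and 0 with the replicate block. The block changed no other count of calls, and whether the replicate numbers pair the samples is not settled. Leaving out 1 array gave 1 to 15. These counts are given without the numbers of all genes passing, so the changes are not shown to be particular to the members. The median difference was 0.65 to 0.72 when 1 array was left out, and 0.54 within array set 1. For Id2KO against WT the median was -0.45 to -0.27 when 1 array was left out, and for Id2KOBimKO against BimKO -0.50 to -0.13. For BimKO against WT it was -0.11 to 0.17, and it was -0.11 without BimKO array 2, so its sign is not settled. For Id2KOBimKO against WT it was -0.33 to -0.21, and -0.11 within array set 2. The interaction median was -0.058 to 0.25. On the 9 arrays with low Cd74, chosen after seeing the data, 0 members passed between KLRG1hi and KLRG1lo cells, and the median was -0.14 for Id2KOBimKO against BimKO and -0.20 for BimKO against WT (1 array or 2 per group, the lone arrays assumed to vary like the others), with an interaction median of 0.31. No member passed in any comparison of mutants under these settings. The causes of these changes were not tested, except that leaving out arrays leaves fewer samples. Ttk, Kif4, Bub1, Anln, Cenpf, Cenpe, Ndc80, Nusap1 and Spc25 lie at or below the highest background level on 1 or more arrays, which limits their values.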
